A study of Caenorhabditis elegans with 24 samples.

Results

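The chromatin contacts of BAF-1(G12T) in the hypodermis, the epidermal tissue that covers the worm and makes its cuticle, were mapped in *C. elegans* with DamID. The map is the log2 ratio of Dam::BAF-1(G12T) over GFP::Dam in each of 3 replicates, and it was drawn from 6 of the 24 libraries of the study. It covers 46374 genes and 50139 bins of 2 kb, and all of them are described. The bacterial DNA adenine methylase Dam, joined to a protein, methylates GATC sites close to where the protein sits, and free GFP::Dam shows how open each site is to the enzyme. Both groups carried baf-1(G12T) at the animals' own baf-1 gene, a single-copy Dam transgene on chromosome II under the hsp-16.41 promoter, and a dpy-7p::FLP transgene on chromosome IV. FLP removes a cassette between FRT sites, so that the Dam protein is made only where the dpy-7 promoter has been active. Each library came from 4000 animals at the L4 stage, grown for 48 h at 20 °C, with 400 ng of DNA and 22 PCR cycles. Other libraries of the study mapped Dam::BAF-1 in wild-type (WT) animals and both proteins in the intestine (nhx-2p::FLP). The genotype of the animals changed together with the fusion protein, so protein and genotype cannot be told apart in any comparison with Dam::BAF-1.

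BAF-1 is the worm form of the barrier-to-autointegration factor, a small protein that forms dimers, binds DNA of any sequence, and joins it to lamin and to LEM-domain proteins of the inner nuclear membrane. The change G12T, glycine to threonine, is the worm counterpart of the human change behind Néstor-Guillermo progeria syndrome, a premature ageing disease. In worm nuclei the outer parts of the autosomes, called arms, are rich in silent genes with H3K9 methylation and lie near the nuclear envelope, whereas the chromosome centres hold most broadly used genes. Of the X chromosome, the left end is the portion known to touch the envelope.

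The mutated codon is shown because both the animals and the fusion carry the change. The reference codon 12 of baf-1 (WBGene00000235, III:9467464-9468058, plus strand, exonic) is GGA, at III:9467502-9467504 of WBcel235, and stands in capitals in the start of the coding sequence (chrIII:9467469-9467528, RefSeq WBcel235, plus strand).
baf-1 coding start: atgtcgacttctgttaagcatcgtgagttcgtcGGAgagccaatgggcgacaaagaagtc
The ratios of the gene itself did not agree between replicates. They were −3.43, 2.34 and −1.69 in replicates 1, 2 and 3, a mean of −0.93 ± 2.96 (SD, n = 3) and the highest spread among the named genes, with replicate 2 alone above 0 (adjusted p = 0.337 by limma). Without replicate 1 the mean was 0.32, and without replicate 2 it was −2.56 and passed the test (adjusted p = 0.00126). The fusion construct adds baf-1 sequence that the GFP::Dam strain lacks, and its part in these ratios was not tested.

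Each ratio column was centred, so that a value of 0 is the median of the features with reads in that column, not an absence of contact. A feature was tested where none of the 3 columns stood at the single most frequent value, which is what features without reads take. This kept 31277 genes and 38277 bins. Whether a bin could be tested depended on its GATC sites. Of 1401 bins without a GATC, 2 (0.143%) were tested, against 28.2% of bins with 1 site, 72% with 2 to 4 and 88.4% with 5 or more. Replicate columns correlated across tested genes at Pearson's r = 0.769 (1 and 2), 0.754 (1 and 3) and 0.831 (2 and 3), and genes are not independent of their neighbours. Of the tenth of tested bins with the highest values, replicates 2 and 3 shared 1858 (48.5% of each), replicates 1 and 2 shared 1444 (37.5% and 37.7%) and replicates 1 and 3 shared 1511 (39.2% and 39.5%). Replicate 1 stood somewhat apart from the other replicates. It also had the most features without reads, 26.8% of genes against 15.9% and 20.8%.

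Bound features were those with a mean above 0 and depleted features those with a mean below 0 at a false discovery rate of 0.05, by limma with Benjamini-Hochberg adjustment over all tested features. By this rule 7198 genes (23% of those tested) were bound and 9937 (31.8%) were depleted, as were 8664 bins (22.6%) and 10596 bins (27.7%). Calls reached down to means of 1.11 and −1.12 for genes and of 1.22 and −1.22 for bins. The number of bound features rested on replicate 2: without it 4521 genes and 4676 bins were bound. The balance of bound and depleted depended on where 0 was put. With the authors' centring on the column mean, 9219 genes were bound and 8598 depleted, and 10519 and 9989 bins. Genes and bins are counted from the same libraries over overlapping windows, so their calls are not separate readouts. Of bound genes 96.1% overlapped a bound bin, against 0.555% of depleted genes and 24.2% of genes with no call.

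The bins at both ends of the scale are shown for their GATC sites, which are the letters that DamID reads, in capitals. In each, 300 bases with the most GATC sites were taken, on the plus strand of WBcel235 (RefSeq). The highest bound bin, IV:16936001-16938000, lay in the right arm of chromosome IV, overlapped Y116A8C.10, held 5 GATC sites and had ratios of 5.85, 3.55 and 5.44. The lowest depleted bin, V:11802001-11804000, lay in the centre of chromosome V, overlapped D2023.3, held 7 GATC sites and had ratios of −9.61, −5.83 and −3.14. Both were picked as extremes of the called bins, at an adjusted p of 0.000323 (limma, n = 3). All 3 replicates were on the same side of 0 in each.
highest bound bin (chrIV:16936183-16936482): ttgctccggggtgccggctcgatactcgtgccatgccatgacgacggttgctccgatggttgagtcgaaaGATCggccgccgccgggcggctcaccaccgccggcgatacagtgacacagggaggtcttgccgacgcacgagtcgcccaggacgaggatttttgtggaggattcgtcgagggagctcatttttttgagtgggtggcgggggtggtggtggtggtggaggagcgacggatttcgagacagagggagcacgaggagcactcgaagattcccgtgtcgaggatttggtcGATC
lowest depleted bin (chrV:11802645-11802944): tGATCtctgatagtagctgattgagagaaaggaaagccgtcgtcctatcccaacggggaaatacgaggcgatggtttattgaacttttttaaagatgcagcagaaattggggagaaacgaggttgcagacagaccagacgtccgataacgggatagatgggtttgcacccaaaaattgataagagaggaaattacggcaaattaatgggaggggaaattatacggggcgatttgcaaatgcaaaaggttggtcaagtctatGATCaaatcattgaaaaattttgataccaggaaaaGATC
The first stretch held 38.3% A and T and the second 58.3%, and their GATC sites numbered 2 and 3. The stretches were picked for GATC sites and do not stand for their bins, which held 67.05% and 67.15% A and T.

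BAF-1(G12T) sat on the autosome arms and was low over the centres. Over all bins, the arms exceeded the centres by 1.57, 1.77 and 1.41 log2 units in the 3 replicates, a mean of 1.58 ± 0.18 (SD, n = 3). The difference was positive in every replicate and on each of the 5 autosomes, with a p of 0.25 by a two-sided exact sign-flip test, below which 3 replicates cannot go. Of the bound autosomal bins, 7696 of 8154 (94.4%) were in arms, as were 2135 of 8007 depleted bins (26.7%), while arms held 60.4% of the bins tested. Chromosome II had the widest contrast, at 2.40, 2.28 and 1.93, and chromosome IV the narrowest, with a mean of 1.08 ± 0.17. The order of the others by mean was III (1.59 ± 0.24), V (1.50 ± 0.16) and I (1.37 ± 0.25). Of these 3, I was the lowest in each replicate, whereas the order of III and V changed between replicates. All chromosomes are read from the same 3 columns, so the replicate SD does not measure a difference between chromosomes.

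**Figure D1:**
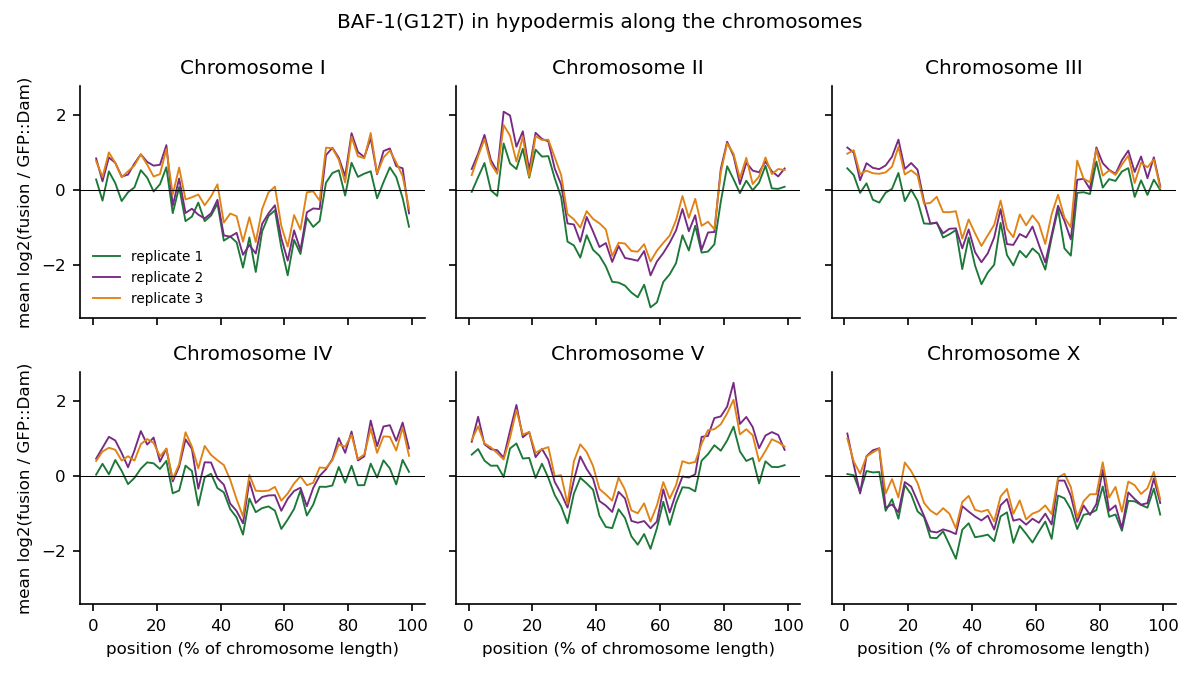
Mean centred log2 ratio (y axis) in 50 windows, each 2% of a chromosome's length, along each of the 6 chromosomes (x axis), with the 3 replicates drawn. All autosomes are high at the sides and low in the middle, whereas on X 6 of 50 windows average above 0.

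**Figure D2:**
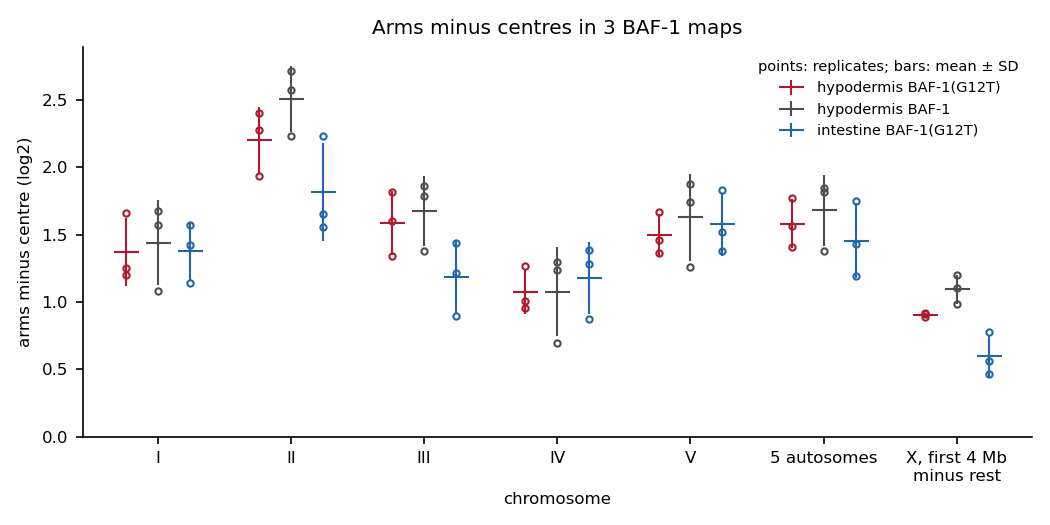
Arm mean minus centre mean (y axis, log2 units) for each autosome and for the 5 together, and the left 4 Mb of X minus the rest of X (x axis), for this map and for the maps of BAF-1 in the hypodermis and BAF-1(G12T) in the intestine; points are replicates and bars the mean ± SD (n = 3). Every point is above 0, and in the hypodermis BAF-1(G12T) map chromosome II averages 2.21 and X 0.90.

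The centre of chromosome II was the most depleted region of the genome. Its ratios were −2.05, −1.40 and −1.11, with 64.6% of tested bins depleted and 1.44% bound. The centre of III followed (−1.17 on average, 52.2% depleted), and that of IV was the least depleted (−0.94, −0.62 and −0.35, with 32.9% depleted). Among arms, the left arm of II and the right arm of V were the highest. The left arm of II had 0.50, 1.07 and 0.98 with 51.1% of its bins bound, and the right arm of V had 0.38, 1.11 and 0.99 with 49.8% bound. The other 8 arms averaged between 0.38 and 0.60, and 33.1% to 42.5% of their bins were bound. All arms are read from the same 3 columns, so the replicate SD does not measure a difference between arms. The right arm of I (0.21, 0.81 and 0.79) was above the left arm of IV (0.02, 0.52 and 0.59) in each replicate. The highest window of 2% of a chromosome was on V at 83% of its length (1.32, 2.50 and 2.04) and the lowest on II at 57% (−3.13, −2.27 and −1.90).

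The step from centre to arm differed in size between borders, also between the left and right borders of the same chromosome. The 500 kb outside a border exceeded the 500 kb inside it by 1.62 ± 0.12 at the right border of II, 1.55 ± 0.10 at its left, 1.54 ± 0.12 at the right of III and 1.50 ± 0.18 at the right of I (SD, n = 3). The right border of V had a step of 0.73 ± 0.06. At the other 5 borders it was between 0.33 and 0.50, and at the left of III the spread (0.40) was as wide as the step. Averaged over the 10 borders, the ratio rose from −0.55 at 50 kb inside to 0.02 at 50 kb outside and 0.56 at 450 kb outside. The very ends did not follow the arms everywhere. The last 100 kb averaged −0.83 at the right end of II, −0.58 at the right of I, −0.41 at the left of II and −0.38 at the right of III, against 0.47 at the left of I and 0.30 at the left of III and the right of V.

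**Figure D3:**
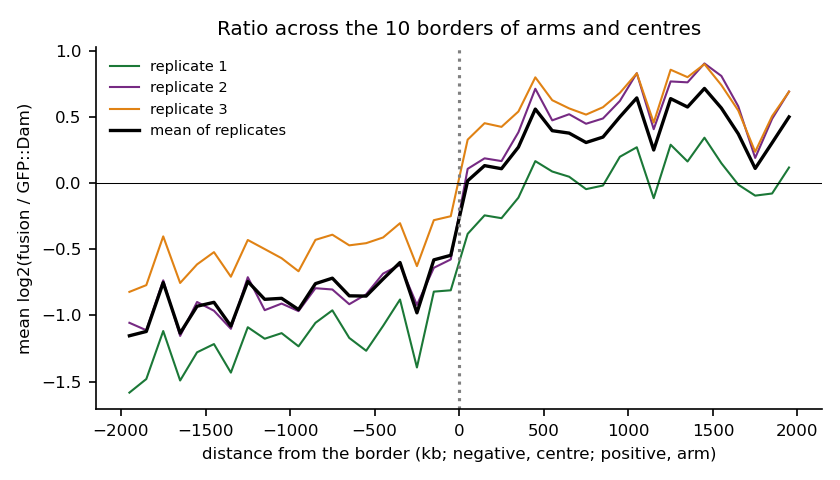
Mean centred log2 ratio (y axis) in windows of 100 kb by distance from the arm-centre border (x axis, kb, positive toward the arm), averaged over the 10 autosome borders with the replicates drawn. The mean passes from −0.55 to 0.02 between the windows at 50 kb inside and 50 kb outside.

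On X the left end was higher than the rest. The left 4 Mb of X had ratios of −0.31, −0.01 and 0.25 and the rest −1.21, −0.92 and −0.64. The left end was higher by 0.91, 0.92 and 0.89, and its share of bound bins was 19.5% against 4.07%. That share is near the 22.6% of all bins, and 19.2% of bins at the left end were depleted, against 43.5% in the rest. The excess of 0.90 ± 0.01 was the most even of all the regional contrasts, at the smallest exact sign-flip p of 0.25. The rest of X resembled an autosome centre, with a difference of 0.11 ± 0.07 from those centres. Over its whole length X was below the autosomes by 0.67 ± 0.11.

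Contacts came in domains, here runs of at least 3 bound bins in which a single other bin may interrupt. There were 1164 bound domains with a median length of 10 kb (quartiles 6 and 16 kb), and together they covered 16100 kb, or 16.1% of the genome, and held 78.9% of the bound bins. Of these, 1029 were in arms, 59 in autosome centres and 76 on X. Chromosome V was the most covered, at 25% of its length in 327 domains, and X the least, at 3.95%. Without replicate 2 there were 683 domains. Depleted domains were built the same way. They numbered 1252 with a median of 12 kb, and 306 of them reached 20 kb, against 208 of the bound ones. The longest, I:9088001-9200000, spans 112 kb and holds eef-2, a translation elongation factor, pyk-1, a pyruvate kinase, and mel-26, an adaptor of a ubiquitin ligase.

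The longest bound domain, I:12288001-12462000, ran for 174 kb in the right arm of chromosome I, with 80 of 87 bins bound and ratios of 1.81, 2.66 and 2.51. It holds 59 protein-coding genes, among them oac acyltransferase genes, glct and bgnt glycosyltransferase genes, nhr nuclear receptor genes and clec lectin genes. Both of the next longest were in the right arm of V. The domain V:17132001-17244000 (112 kb; 1.95, 2.84 and 2.29) holds srh, srz and srbc chemoreceptor genes among 27 protein-coding genes and 12 pseudogenes. The domain V:17394001-17494000 (100 kb; 1.61, 2.87 and 2.62) holds 21 protein-coding genes and 24 pseudogenes. All 3 are runs of repeated gene families, and the replicates of each were above 1.6.

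Bound islands, the 59 domains of the autosome centres, were short (median 6 kb), and the longest lay over a muscle gene. The island at I:4048001-4078000 (30 kb) covers part of unc-89, the obscurin-like giant protein of muscle, with clec-89 inside it, and had 1.74, 2.32 and 1.99. That at IV:11974001-11998000 (24 kb) covers part of unc-22, the twitchin gene of muscle, and had 1.04, 1.80 and 1.50. The longest of the other centres were III:9192001-9208000 (16 kb; ZC84.1, ZC84.6 and ZC84.7), V:9816001-9828000 (12 kb; the chemoreceptor genes sru-31, str-193 and str-2) and II:10268001-10278000 (10 kb; F54B3.1, F54B3.2 and F54B3.4). On X the longest was X:1650001-1678000 (28 kb; 1.93, 2.71 and 2.13), which holds the T-box genes tbx-31 and tbx-32 and the F-box gene fbxa-170. It lies in the left end.

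Binding varied with repeat content within arms, and unevenly between replicates within centres. In arms, bins with under 20% of bases masked as repeats had a median of 1.48 and 54.2% were bound, against 0.82 and 34.5% where 40 to 50% was masked and 0.94 and 34.6% at 60% or more. In centres the median went from −1.26 under 20% to −0.35 at 60% or more, the last group holding 68 bins. The bound share was 4.66% and 2.94%. Most of that shift was in replicate 1, which went from −1.92 to 0. Replicate 2 went from −1.09 to −0.95 and replicate 3 from −0.83 to −0.38. Across 6 classes of GATC number, medians were 0.79 to 1.03 in arms and −1.35 to −1.16 in centres. In arms the bound share was 26.4% of bins with 1 GATC site and 45% of bins with 14 or more. These are descriptions over bins, which share libraries.

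The 10 highest bound protein-coding genes, with all 3 replicates above 0 and neighbours within 20 kb skipped, all lay in arms. F46A8.6 (I:11243836-11245003) led with 6.19, 3.25 and 4.65, and T10D4.11 (II:3148432-3149621) had 4.32, 5.20 and 3.38. Of the chemoreceptors, which are the seven-pass receptors of sensory neurons, 5 were among the 10 highest genes kept after skipping neighbours within 20 kb. They were srw-121 (V:2990313-2991585) with 3.06, 4.59 and 4.75, srz-69 (IV:3475646-3477224) with 5.46, 2.98 and 3.73, srsx-2 (V:17436985-17438417) with 3.86, 4.44 and 3.65, sra-22 (I:12701439-12702886) with 4.52, 3.78 and 3.63, and srt-24 (IV:728500-731037) with 3.97, 3.14 and 4.48. The remaining ones were scl-15, which codes for a secreted SCP-like protein (mean 4.09), F21D9.8 (4.01) and Y116A8C.10 (3.89). All 10 were above 2.4 in every replicate, and had adjusted p-values of at most 2.91e-04 by limma. Such values follow in part from the way these genes were picked. Their order did not exceed the spread between replicates, which was 0.41 to 1.76 (SD).

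Families of receptors and lectins were bound as groups. For reading the counts below, 23% of all tested genes were bound and 31.8% depleted, and the median of all tested genes was −0.13. Of 1309 chemoreceptor genes 1095 were tested, and 671 were bound and 34 depleted, with a median of 1.52 (1.27, 1.71 and 1.50 by replicate). Of the 8 subfamilies counted apart, srw and sri had the highest medians (1.92 each), and none of their tested members was depleted. Place went with the counts within the family too. In arms 653 of 928 tested members were bound (70.4%), against 38.7% of all tested genes in arms, and in centres 15 of 140 (10.7%), against 2.44%. F-box genes, whose products select proteins for ubiquitin ligases, were 174 bound and 9 depleted of 280 tested (median 1.51), led by fbxb-106 (3.86) and fbxa-71 (3.49), with fbxa-141 (−2.29) and fbxb-74 (−2.83) lowest. C-type lectin (clec) genes were 121 bound and 18 depleted of 217 (median 1.38), from clec-171 (3.71) and clec-96 (3.64) to clec-144 (−3.27) and clec-1 (−4.47). Place bears on both counts, as 91.6% of F-box and 82.9% of clec genes lie in arms. There 65% and 64.5% of tested members were bound, against 38.7% of all tested genes in arms. Nuclear hormone receptor genes were divided, with 64 bound and 61 depleted of 247 (median 0.04), from nhr-72 (3.47) and nhr-169 (3.18) to nhr-46 (−4.18) and nhr-25 (−4.24). Bound domains covered 657 of 1309 chemoreceptor genes (50.2%), 177 of 322 F-box genes (55%) and 124 of 240 clec genes (51.7%), against 17.9% of all genes. Most domains lie in arms, so place bears on these shares too. How reads shared by near-identical copies were assigned was not given in the sources used here, so values within these families are less certain than for single-copy genes.

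**Figure D4:**
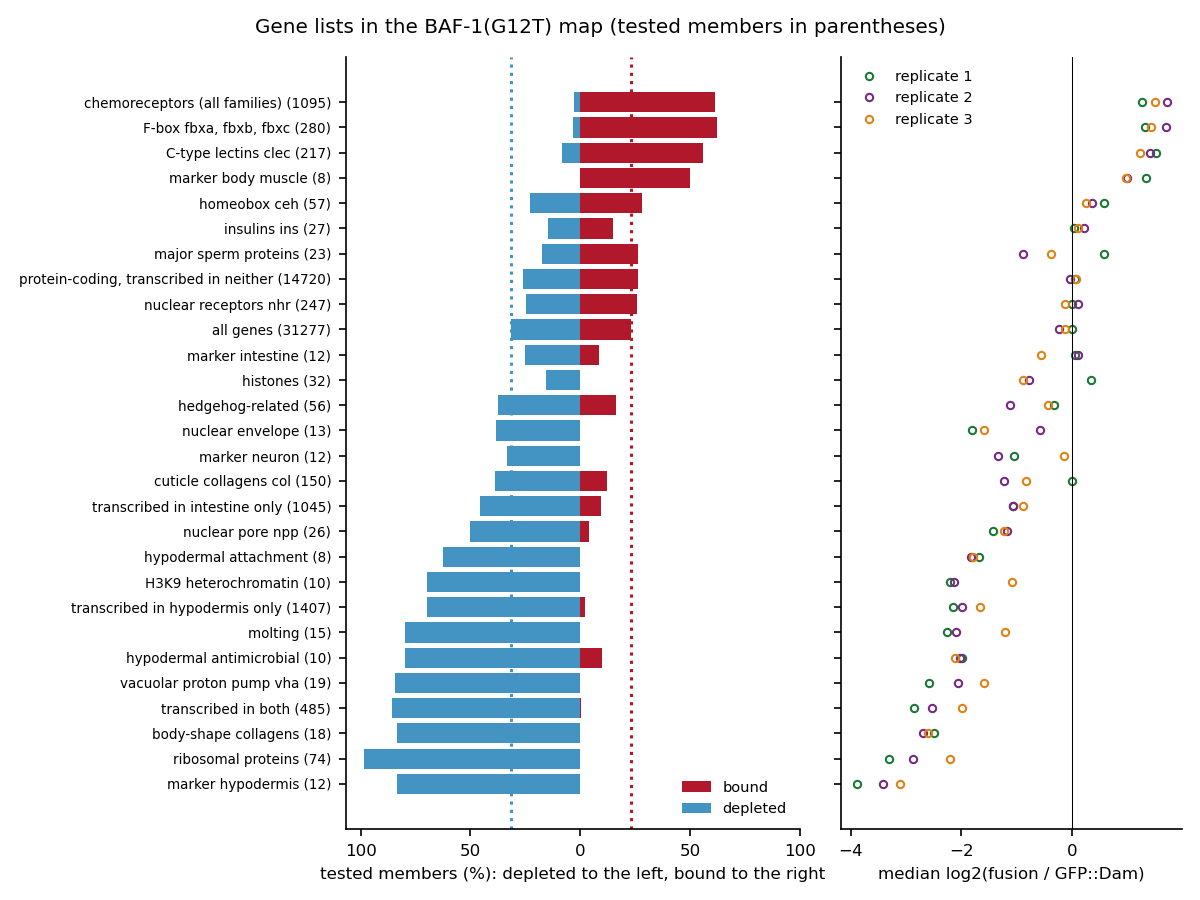
Left panel, the percentage of tested members of each gene list (y axis, number tested in parentheses) called bound (bars to the right) or depleted (to the left), with dotted lines at the values for all genes, 23% and 31.8%. Right panel, the median centred log2 ratio of the same members in each of the 3 replicates. Chemoreceptors, F-box genes and lectins stand at the top, and ribosomal proteins and hypodermis markers at the bottom with all 3 replicate medians below −2.

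The 6 lowest depleted protein-coding genes were picked in the same way, with all 3 replicates below 0. They lay in autosome centres or on X outside its left end. The lowest was fip-5 (X:10302741-10303143), of the family of fungus-induced peptides, with −7.50, −5.69 and −3.63. The clathrin adaptor gene apm-1 (I:5342180-5344724) had −7.29, −5.74 and −3.63. Then followed D2023.3 (−8.07, −4.78 and −3.38), T09A12.8 (−5.62, −6.0 and −3.67) and F32D8.7 (−6.37, −4.68 and −4.04). The hedgehog-related gene wrt-1 (II:7530996-7533246) had −5.97, −5.21 and −3.88. In these 6 genes replicate 3 was the closest to 0, and all 18 values were below −3.3, in part because the genes were picked as lowest. Among bins, II:1140001-1142000 in the left arm of II was also low, at a mean of −5.75.

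Housekeeping genes were depleted whether they lay in arms or centres. Of 74 tested ribosomal protein genes 73 were depleted and none bound, with a median of −2.75 (−3.31, −2.87 and −2.21). The 33 of them in arms had a median of −2.62 with 32 depleted, against 0.92 for all protein-coding genes in arms. The lowest were rps-26 (−4.05) and rpl-39 (−4.05), and the highest were rpl-16 (−1.08, adjusted p = 0.0618) and rpl-34 (−1.28), whose call is lost without replicate 2 (−1.06) or 3 (−1.0) and with the authors' centring (−1.0). The vha genes for the vacuolar proton pump were 16 depleted and 0 bound of 19 (median −2.23), down to vha-13 (−3.17) and vha-9 (−3.26), while vha-6 (−0.90) and vha-7 (−0.25) did not pass. Bound domains held 0 of 78 ribosomal protein genes.

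Genes transcribed in the hypodermis were depleted in a larger share than those transcribed in the intestine. The lists are those the study drew up from DamID of an RNA polymerase subunit, which is also a ratio over GFP::Dam, so they are not a fully separate readout. Of 1407 tested genes transcribed in the hypodermis and not the intestine, 980 were depleted and 30 bound, with a median of −1.93. Of 1045 transcribed in the intestine and not the hypodermis, 475 were depleted and 99 bound, with a median of −0.97. Genes transcribed in both were 415 depleted and 2 bound of 485 (−2.52). The order was kept within arms and within centres. In arms the medians were −0.96 for the hypodermis list, 0.08 for the intestine list, −1.82 for both and 1.08 for neither, and in centres −2.36, −1.78 and −1.16 for hypodermis, intestine and neither. Bound domains held 26 of 1464 hypodermis-list genes (1.78%).

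Short lists of cuticle and epidermal genes were depleted in larger shares than all tested genes. Place bears on these shares, as 12.9% of all tested genes in arms were depleted, 57.4% in centres and 51.1% on X. Of the body-shape collagens 21.1% lie in arms. Of 18 tested body-shape collagens, the dpy, rol, sqt, bli and lon genes whose products build the cuticle, 15 were depleted and none bound, with a median of −2.58 (−2.49, −2.69 and −2.60). The lowest were rol-6 (II:8733050-8734239) with −5.0, −4.48 and −4.02 and rol-8 (mean −4.44), and the highest were dpy-4 (−0.67) and dpy-3 (−0.03; 1.04, 0.66 and −1.79), which did not pass. The wider col family was mixed, at 18 bound and 58 depleted of 150 (median −0.86). It ran from col-163 (3.73) and col-86 (2.81) in arms to col-3 (−5.33, −4.87 and −4.29) and its neighbour col-117 (mean −4.86), whose extended gene windows overlap.

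The list of 15 molting genes had 12 depleted and none bound (median −1.93). Of its nuclear receptors, which drive the molting cycle, nhr-25 (X:13008493-13013964) had −4.75, −3.87 and −4.10 and nhr-23 (I:7214745-7221299) had −4.47, −3.42 and −3.45, all far below 0. The dual oxidase gene bli-3 (−0.44, 1.47 and 1.45) and the protease inhibitor gene mlt-11 (0.03, −0.77 and 0.02) did not pass. Attachment genes, which hold the epidermis to muscle and cuticle, were 5 depleted and 0 bound of 8 (median −1.48), from let-805 (−0.74) and pat-12 (−0.88) to mup-4 (−3.36) and ifb-1 (−3.99). Hedgehog-related genes were 9 bound and 21 depleted of 56 (median −0.53), from grl-29 (2.40) and grd-16 (2.08) to wrt-3 (−4.28) and wrt-1 (−5.02).

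Genes for antimicrobial peptides, which the epidermis makes after infection or wounding, were 8 depleted and 1 bound of 10 tested (median −1.96). In the left arm of V, nlp-31 (V:3980055-3980622) had −4.75, −4.53 and −2.75. Its mean of −4.01 stood apart from a left arm whose bins averaged 0.46. The neighbours nlp-29 (−2.74, −2.55 and −2.87) and nlp-27 (−2.14, −1.40 and −1.62), both depleted, lie within the same 10 kb. In the centre of V, nlp-33 (V:11147346-11147737) had −4.68, −2.89 and −3.22. The exception was nlp-32 in the left arm of III, bound at 2.36, 1.40 and 1.48, while cnc-2 (−0.84) did not pass.

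Markers of other cell types were at other levels. The 12 hypodermis markers had 10 depleted and none bound (median −3.53). No hypodermis marker lies in an arm, and 57.4% of all tested genes in centres and 51.1% on X were depleted. Not passing were elt-1 (−0.87), a GATA factor of early epidermis, and col-19 (1.18), an adult collagen. Of 8 body muscle markers 4 were bound and none depleted (median 1.06), namely the MyoD homologue hlh-1 (II:4518574-4522528) with 3.40, 1.65 and 2.48, the troponin gene tni-3 (2.18), the myosin gene unc-54 (1.63) and unc-89 (1.37), the last of which did not pass without replicate 2 (1.51) or 3 (1.34). Of 7 tested germ line markers 5 were bound (median 1.40). Intestine markers were 1 bound and 3 depleted of 12 (median −0.17), and neuron markers 0 bound and 4 depleted of 12 (median −0.83). Of 3 tested seam markers, those of the stem-like cells of the epidermis, 1 was bound. DamID reports contact, not RNA, so these levels do not identify cells. In a bulk sample, methylation in fewer cells and less methylation per cell cannot be told apart.

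None of the genes listed for the nuclear envelope or for H3K9 heterochromatin was called bound. Most lie outside arms, with 30.8% of the envelope list and 20% of the H3K9 list in arms. Of all tested genes in centres 2.44% were bound and 57.4% depleted, so the counts below do not set these lists apart from their place. Of 13 genes for nuclear envelope proteins 5 were depleted and none bound (median −0.76), among them zyg-12 (−2.17), which ties nuclei to centrosomes, and vrk-1 (−2.37), the kinase that releases BAF from DNA. The gene lem-4, needed to load BAF after mitosis, had 3.95, 0.26 and −0.31, and sun-1 had −1.08, 0.94 and 0.52. Neither passed, and in both the replicates fell on either side of 0. Without replicate 1 lem-4 averaged −0.02, and without replicate 2 or 3 it was called bound at 1.82 and 2.11. Of the genes for BAF-1's partners, lmn-1 for lamin had 0.05, −0.26 and −2.06. The LEM-domain genes emr-1 (−1.86, 1.15 and −1.03) and lem-2 (−0.02, −1.38 and 0.44) also had replicates on both sides of 0. None of them passed. Of 10 H3K9 heterochromatin genes 7 were depleted and none bound (median −1.89), from the methyltransferase gene set-25 (−0.27) and the HP1 gene hpl-2 (−0.27), which did not pass, to cec-3 (−2.66) and lin-61 (−3.41), both readers of methylated H3K9. Nuclear pore genes were 1 bound and 13 depleted of 26 (median −1.12). The exception was npp-8 (IV:1567921-1595824) with 2.92, 2.30 and 2.07. Below it came npp-26 (0.94, not passing), and the lowest were npp-27 (−2.48) and npp-23 (−3.25).

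Other families spread to both sides. Homeobox (ceh) genes were 16 bound and 13 depleted of 57 (median 0.49), from ceh-81 (2.61) and ceh-100 (2.47) to ceh-5 (−3.02) and the Hox gene ceh-13 (−3.56). Insulin-like (ins) genes were 4 bound and 4 depleted of 27 (median 0.26), with ins-26 (1.66) and ins-21 (1.63) highest and ins-37 (−2.10) and ins-17 (−2.57) lowest. Both ins-26 (1.52) and ins-21 (1.37) fell short without replicate 3. Major sperm protein (msp) genes were 6 bound and 4 depleted of 23 (median 0.07), from msp-55 (2.88) and msp-58 (2.24) in the left arm of IV to msp-33 (−2.08) and msp-50 (−2.52) in the centre of II. Without replicate 2 msp-50 was not called (−1.52). Of 72 histone genes 32 were tested, with 0 bound and 5 depleted (median −0.38), and his-41 (−3.89) and his-35 (−3.98), adjacent on V, lowest and his-16 (0.99) and his-63 (0.99) highest. Histone and msp genes have near-identical copies.

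By gene class, pseudogenes were bound most often, at 867 bound and 141 depleted of 1656 tested (median 1.29), and 43.2% of pseudogenes lay in bound domains, against 18.9% of protein-coding genes. The genes for piRNAs, the short RNAs that guard the germ line, were 1848 bound and 656 depleted of 5657 (median 0.80). This did not exceed their place, since 95.7% of piRNA genes lie in arms. There 34.8% of those tested were bound (median 0.85), against 38.7% of all tested genes in arms (0.87). The piRNA genes were the least often tested, as 15351 are listed, and their windows overlap one another. Genes for tRNAs (17 bound and 253 depleted of 414; median −1.71) and snoRNAs (14 and 171 of 262; −1.99) were low, and microRNA genes were 22 bound and 87 depleted of 182. Protein-coding genes followed their place, with medians of 0.92 in arms (3646 bound of 8822), −1.41 in centres (165 of 6454) and −0.97 on X (154 of 2380).

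No gene or bin differed from the map of Dam::BAF-1 in the hypodermis of WT animals at a false discovery rate of 0.05. The counts were 0 of 26695 genes (0%) and 0 of 33580 bins by limma. Before adjustment 509 genes and 548 bins had p under 0.05. With the replicate number as a block the counts were again 0 and 0, and 1150 and 1332 before adjustment. The gene with the smallest p among those higher was 21ur-15082, a piRNA gene in the centre of III, at −0.26, 1.24 and −0.15 against −2.23, −2.68 and −4.06 (difference 3.27). Among those lower it was W04A8.6 in the right arm of I, at 2.82, −1.26 and 2.37 against 5.26, 5.42 and 5.64 (difference −4.13). Neither gene passed after adjustment. Both were picked for the smallest p, so the lack of overlap between their groups is no support for a difference. The regional contrasts also stayed within their spread or at the limit of the design. Arms minus centres differed by −0.10 (exact permutation p = 0.6, two-sided) and the left end of X minus its rest by −0.19 (p = 0.1, the smallest that 3 against 3 allows). A p above the threshold does not show that the maps are alike.

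Against BAF-1(G12T) in the intestine, differences were found, among them many at epidermal genes and on X. Of 27643 genes tested in both maps 820 (2.97%) were higher in the hypodermis and 1453 (5.26%) lower, as were 1052 (3.09%) and 1733 (5.09%) of 34025 bins. Most libraries moved these counts by over 1.5 times. Without hypodermis replicate 1, 2 or 3 there were 290, 355 and 1061 such genes in place of 2273, without intestine replicate 1 or 3 there were 1302 and 997, and without intestine replicate 2 there were 2623. For bins the counts without the 3 hypodermis replicates were 276, 483 and 1335 in place of 2785, and without intestine replicates 1, 2 and 3 they were 2174, 3233 and 1067. With no filter on features without reads, 1225 genes and 2076 bins differed. For the differences each column was centred on the features tested in both maps, so the ratios quoted here differ slightly from those above.

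Antimicrobial peptide genes stood furthest from the intestine. Of 10 tested 7 were lower in the hypodermis and none higher, with a median difference of −3.95, and 4 to 7 passed when a library was left out (the fewest without hypodermis replicate 1 or 2). The gene nlp-31 had −4.75, −4.20 and −2.56, against 2.79, 2.76 and 2.21 in the intestine (difference −6.42 ± 0.74 SE, adjusted p = 0.00853 by limma). The gene nlp-33 had −4.68, −2.56 and −3.03 against 2.58, 4.17 and 2.41 (−6.48), and nlp-27 had −2.14, −1.07 and −1.43 against 4.19, 3.23 and 4.60 (−5.55). In each the 2 tissues lay on opposite sides of 0 in all replicates. T19C4.24, whose window overlaps that of nlp-33, had the smallest p of all genes lower in the hypodermis (−6.01). The values for nlp-27, nlp-29 (−4.99) and the other genes of the short lists named in the next paragraph were chosen after they had been seen.

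**Figure D5:**
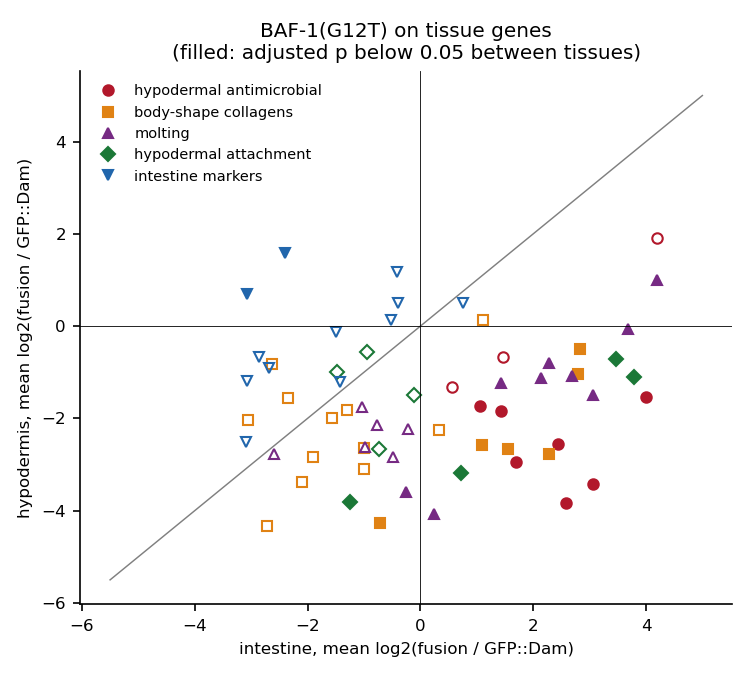
Mean centred log2 ratio of BAF-1(G12T) over the 3 replicates in the hypodermis (y axis) against that in the intestine (x axis), 1 point per tested gene of 5 lists; filled points have an adjusted p under 0.05 for the difference and the diagonal marks equal values. The 7 filled antimicrobial genes lie below 0 in the hypodermis and above 0 in the intestine, and the 2 filled intestine markers the other way round.

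Of 15 molting genes 9 were lower and none higher (median difference −3.09), although 1 to 9 passed when a library was left out (1 without hypodermis replicate 1, 2 without replicate 2). The receptor gene nhr-25 had −4.75, −3.55 and −3.90 against 0.99, −0.82 and 0.56 (−4.31, adjusted p = 0.0094), and mlt-10, a gene of the molting cycle, had −1.63, −2.35 and −0.50 against 3.76, 2.61 and 2.80 (−4.55). Body-shape collagens were 6 lower of 18 (median −1.63; 2 to 7 on leaving out a library, with 2 and 3 without hypodermis replicates 2 and 1), with sqt-1 at −2.57, −3.23 and −2.50 against 2.59, 2.50 and 1.72 (−5.04) and dpy-7 at −2.77, −2.74 and −2.48 against 1.43, 1.92 and 1.30 (−4.21 ± 0.64 SE, adjusted p = 0.00853). The FLP transgene of the hypodermis strains carries dpy-7 promoter sequence, and its part in the dpy-7 value was not tested. Attachment genes were 4 lower of 8 (median −2.25; 0 without hypodermis replicate 1, 2 without replicate 2 and 3 without any other library), with mua-3 at −1.84, −1.44 and −0.05 against 5.10, 2.47 and 3.77 (−4.89). The other way, ugt-16, a glucuronosyltransferase gene in the centre of V, had the smallest p, at 1.00, 1.34 and 0.46 against −4.08, −5.37 and −4.63 (5.63 ± 0.68 SE, adjusted p = 0.00853). The microvillar actin gene act-5 had 2.06, 2.27 and 0.41 against −0.83, −1.78 and −4.57 (3.98), and the gut protease gene asp-1 had 0.98, 1.29 and −0.15 against −1.58, −3.79 and −3.86 (3.78). These were 2 of 12 intestine markers, and both lost their call without hypodermis replicate 1 or 2 or intestine replicate 3.

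The lists of transcribed genes differed between the maps. Of 1359 genes transcribed in the hypodermis only, 175 were lower in the hypodermis map and 15 higher (median −0.53), and of 996 transcribed in the intestine only, 22 were lower and 63 higher (median 0.56). Of 73 ribosomal protein genes none passed in either direction (median 0.34), and chemoreceptors were 29 higher and 13 lower of 1014 (−0.03). F-box genes were 31 higher and 3 lower of 257 (0.59). By place, the rest of X had 444 lower and 56 higher bins of 4682 (9.48% lower), the centre of II 231 lower and 29 higher of 2596 (8.9%), and the left arm of III 85 higher and 31 lower of 922 (9.22% higher, median 0.81). Over whole regions, the rest of X minus the autosome centres was 0.11 in the hypodermis against 0.63 in the intestine, and X minus autosomes −0.67 against −0.14. Both gave p = 0.1 in an exact two-sided permutation test, the smallest possible, and no replicates overlapped. After adjustment over the 8 regional comparisons these were 0.2. Arms minus centres differed by 0.13 (exact permutation p = 0.5).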

How the data were processed

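DamID libraries of 3 replicates per group were used from the hypodermis (Dam::BAF-1(G12T) and GFP::Dam in baf-1(G12T)). Per the study's methods, the authors counted adapter-bearing reads at GATC sites of ce11 (WBcel235) in bins and in genes widened by 500 bp, added 1, scaled to library totals and deposited the log2 ratio of fusion over GFP::Dam, centred on the column mean. The aligner was not given in the sources used here. Also in the 6 tables read (of 8 in the series) are the authors' averages and DESeq2 adjusted p-values, which were not used. The deposited log2 ratios hold no read numbers. Read totals per library that the study lists were not used here, and precision is given as the spread between replicates.

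Each column was centred on its median over features off its most frequent value. limma 3.58.1 (R 4.3.3, robust empirical Bayes) tested 3 columns against 0, and 3 against 3 for differences, with Benjamini-Hochberg adjustment at 0.05. Both were tested on simulated data. For differences, all 6 columns had to be off that value and were centred on the shared features. Regional contrasts used exact tests over replicates. Arm borders followed the study, except that the left end of X was taken as 4 Mb, with 5 Mb as an alternative. Named genes were baf-1 and the 10 highest bound and 6 lowest depleted protein-coding genes. The 10 and the 6 had all 3 replicates on the same side of 0, and neighbours within 20 kb were skipped. Also named were 2 extremes per list at each end and the smallest p of each difference. Added as partners of BAF-1 were lmn-1, emr-1 and lem-2. Domains named were the 3 longest, the longest of each autosome centre and that of X. The members, lists and tests were chosen with earlier results of these data known. Gene positions came from the WBcel235 annotation, matched for 46287 genes, and sequences from RefSeq. Same-numbered columns of the 2 hypodermis maps deviated together (correlation 0.438, 0.305 and 0.284 over genes), so the numbers pair them, as judged from the data only, and the block was fitted as an alternative. Other alternatives were the authors' centring, no filter, no robust moderation and each replicate left out. The study describes the replicates as biological triplicates. Neighbouring bins and overlapping gene windows are not independent.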

Additional observations from a re-analysis of the deposited data

Results flagged for a closer look

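The comparison of BAF-1(G12T) between the hypodermis and the intestine differed in 2273 genes and 2785 bins by limma, and these counts ranged from 290 to 2623 and from 276 to 3233 when a library was left out. The named genes with a difference are given as hypodermis minus intestine on the log2 scale, and 11 of the 37 passed the test with every library left out in turn. Those 11 were fip-5 (−7.21), nlp-33 (−6.48), nlp-31 (−6.42), T19C4.24 (−6.01), the Hox gene ceh-13 (−5.88), nlp-27 (−5.55), sqt-1 (−5.04), nlp-29 (−4.99), mlt-10 (−4.55), dpy-7 (−4.21) and ugt-16 (5.63). Genes that lost their call only without hypodermis replicate 1 were mua-3 (−4.89), col-3 (−4.39), nhr-25 (−4.31), pat-12 (−4.18) and col-117 (−4.15). Genes that lost it without hypodermis replicate 1 or 2 were mup-4 (−3.91), bli-1 (−3.84), mlt-11 (−3.74), clec-1 (−3.58), rol-8 (−3.56), dpy-4 (−3.32) and 21ur-15082 (4.08). The remaining ones lost it without 3 or more of the 6 libraries, among them apm-1 (−3.97), wrt-3 (−3.79), T09A12.8 (−3.40), nhr-23 (−3.34), bli-3 (−3.20), F32D8.7 (−3.09), wrt-1 (−2.83), fbxb-74 (−2.83), ifb-1 (−2.56) and vha-7 (−2.33) below the intestine. Above it were asp-1 (3.78), act-5 (3.98), ceh-81 (3.03) and npp-26 (2.79).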

How the results depend on the processing

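Counts of depleted features, the arm excess (1.49 to 1.67 on leaving out a replicate) and the counts of 0 against BAF-1 in the hypodermis kept their direction, and stayed within 1.5 times, under every alternative run. Leaving out a replicate gave 4521 to 8025 bound genes, 4676 to 9998 bound bins and 683 to 1255 bound domains, with the low values all without replicate 2. The share of bound bins in arms was 92.5% with the authors' centring and 93.2% to 96.5% on leaving out a replicate. Centring on the tested features, added after seeing the data, gave 7704 bound and 9150 depleted genes and 9059 and 10163 bins. Against the intestine, the same-numbered columns did not deviate together (−0.137, 0.0699 and −0.0237), and with the replicate block 949 genes and 1292 bins differed. Without the filter on low values 1225 genes did. Leaving out a library gave 290 to 2623 genes and 276 to 3233 bins, and arms minus centres differed by −0.0052 to 0.27, the negative value without intestine replicate 1. The cause of these changes was not tested. The replicate block changed no call against BAF-1 in the hypodermis.

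Named genes near 0 changed sign. With the authors' centring dpy-3 was at 0.25, vha-7 at 0.037, mlt-11 at 0.044, set-25 at 0.014, hpl-2 at 0.013 and 21ur-15082 at 0.26. On leaving out a replicate, baf-1 ranged from −2.56 to 0.32, lem-4 from −0.025 to 2.11, sun-1 from −0.28 to 0.73, dpy-3 from −0.57 to 0.85, mlt-11 from −0.37 to 0.025 and 21ur-15082 from −0.43 to 0.19. Over all named genes, 481 alternative values kept direction and call, 17 lost the call, 8 gained one and 14 changed sign. Over all members instead of tested ones, the median moved beyond the replicate spread in 18 lists and not in 29. With 3 replicates no exact test of a region can pass 0.05, and weakly bound genes between −1.1 and 1.1 cannot be called.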
